A study of Homo sapiens with 32 samples.

Results

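The regions described here are stretches of the transcriptome of RPTEC, an hTERT-immortalized line of renal proximal tubule epithelium, in which an m6A peak was called in every library of both SETD2 knockout clones and in no library of the parent line. They were found by merging the overlapping peaks of the 8 RPTEC peak lists on the 22 autosomes into 66134 regions, and keeping those overlapped by a peak in all 4 SETD2KO lists and in neither WT list. This left 459 regions, 0.694% of all. They were therefore chosen by the measured calls themselves, so their calls in the WT and SETD2KO lists are a description and carry no test. For comparison, 973 regions had the reverse pattern, with a peak in both WT lists and in no SETD2KO list, and 5852 were called in all 6 of these lists. RPTEC was represented by the unedited WT parent (SETD2WT), by the clonal CRISPR knockouts SETD2KO-1 and SETD2KO-2, and by SETD2KO-1R, a clonal derivative of SETD2KO-1 that carries a full-length FLAG-tagged SETD2 transgene. The clear cell renal cell carcinoma (ccRCC) line 786-O had the same 4 lines, again with an unedited parent and the transgene in SETD2KO-1. Each line was profiled by methylated RNA immunoprecipitation sequencing (MeRIP-seq) in 2 immunoprecipitated (IP) libraries. WT and SETD2KO-1R are together called SETD2-expressing, and a library calls a region when at least 1 bp of it is covered by one of its peaks. Each knockout is a single clone, and nothing in the labels says that its libraries came from separate cultures, so the spread between them may be technical.

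N6-methyladenosine (m6A) is the most common internal modification of messenger RNA and is written mainly by the METTL3-METTL14 complex while the transcript is being made. SETD2 is the enzyme that trimethylates lysine 36 of histone H3 (H3K36me3) over the bodies of transcribed genes, and METTL14 is known to bind this mark. SETD2 is often lost in ccRCC, a tumor thought to arise from the proximal tubule. MeRIP-seq enriches fragments with an antibody against m6A, and a peak marks where the IP exceeds its Input. A peak is called only where the RNA is present in enough copies. The lists hold no read counts, so more m6A per transcript and more transcript cannot be told apart at any region below, and expression was not analysed here.

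A small set of the regions spans the annotated start of a gene. Of the 459 regions, 29 held a gene start (6.32%, Wilson 95% interval 4.43 to 8.93), against 5.27% of all RPTEC regions, 3.29% of the regions lost in both clones and 8.85% of those called in all 6 lists. The stretches below show the 50 bases before the start and, in capitals, the first 30 transcribed bases, each 5′ to 3′ on the strand of the gene, from RefSeq in build GRCh38.p14. They are given because these starts, among them those of 3 developmental transcription factors, lie inside regions without a WT peak. SOX2 (chr3:181711875-181711954, plus strand) is a transcription factor of stem and progenitor cells, and its region ran over chr3:181711909-181713540. FOXF2 (chr6:1389526-1389605, plus strand) is a forkhead factor of mesenchymal tissue, and its region ran over chr6:1389449-1390342. The FOXF2 region also holds the start of the noncoding FOXF2-DT on the minus strand. TWIST2 (chr2:238848035-238848114, plus strand) is a basic helix-loop-helix factor known for its part in epithelial-mesenchymal transition, and its region ran over chr2:238847993-238848547. HCP5 (chr6:31463130-31463209, plus strand) is a long noncoding RNA gene of the major histocompatibility region, and its region ran over chr6:31463055-31463462. FOXQ1 (chr6:1312048-1312127, plus strand), another forkhead factor, LAMA4 (chr6:112254538-112254617, minus strand), a laminin chain of basement membranes, and SATB1 (chr3:18425310-18425389, minus strand), a chromatin organizer, are added and were chosen after their values were seen. The starts shown for LAMA4 and SATB1 are alternative ones inside the annotated gene, which reaches base 112254985 for LAMA4 and base 18445592 for SATB1. The LAMA4 region also lies in the noncoding LAMA4-AS1. The last stretch lies before the start of IL11, an interleukin-6 family cytokine, between bases 200 and 121 upstream of it (chr19:55370584-55370663, minus strand), inside a region that touched no annotated gene.
SOX2: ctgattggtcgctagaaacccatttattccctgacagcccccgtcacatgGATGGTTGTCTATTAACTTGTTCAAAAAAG
FOXF2: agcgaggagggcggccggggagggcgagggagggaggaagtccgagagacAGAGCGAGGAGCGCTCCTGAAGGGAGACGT
TWIST2: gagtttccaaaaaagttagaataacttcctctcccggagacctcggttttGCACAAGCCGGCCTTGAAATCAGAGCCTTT
HCP5: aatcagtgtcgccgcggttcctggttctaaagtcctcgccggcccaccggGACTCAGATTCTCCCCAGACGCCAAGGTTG
FOXQ1: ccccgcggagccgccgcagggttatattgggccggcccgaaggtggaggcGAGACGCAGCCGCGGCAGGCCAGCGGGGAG
LAMA4: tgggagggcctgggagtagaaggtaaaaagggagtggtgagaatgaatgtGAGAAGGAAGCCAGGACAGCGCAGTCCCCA
SATB1: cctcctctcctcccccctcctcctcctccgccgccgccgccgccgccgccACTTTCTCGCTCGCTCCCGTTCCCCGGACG
IL11 upstream: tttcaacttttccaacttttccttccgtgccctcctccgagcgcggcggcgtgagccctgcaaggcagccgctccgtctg

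The letters GGACT, the most frequent form of the m6A consensus, were searched on both strands of the windows that RefSeq gives around gene starts (250 bases before to 50 after). Of the 44 windows that the regions overlapped, 17 held GGACT on either strand (38.6%, Wilson 95% interval 25.7 to 53.4), against 44.1% of the 33725 autosomal windows. On the gene's own strand the shares were 13.6% and 25.3%. A match is only a match of letters, and windows of genes that share a start share their bases. Counted from the annotated start, the regions at FOXQ1, FOXF2, HCP5, LAMA4 and TWIST2 began at bases -134, -127, -125, -101 and -92, and the region at SOX2 at base -16.

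The RPTEC lists held 19249 to 31207 peaks and the 786-O lists 25710 to 39670. No pair of lists shared more than 0.03% of its peaks at identical coordinates, so no list repeats another. The lists do not give the depth of each library, for which the methods of the study state only a minimum, and the list with the fewest RPTEC peaks was SETD2KO-2 replicate 2. A peak list does not check the knockout: peaks in SETD2 itself numbered 7 and 10 in the RPTEC WT libraries, 6, 4, 4 and 5 in the SETD2KO libraries, and 11 and 10 in SETD2KO-1R. Of 29 proximal tubule markers, 11 held an RPTEC region and 7, among them ANPEP, GGT1, PAX8, CDH6, CDH16 and HAVCR1, a WT peak, while LRP2, CUBN and SLC34A1 held none. WT peaks lay in 5 of 13 markers of fibroblasts and smooth muscle, 2 of 18 of the distal nephron, 1 of 12 of endothelium and 1 of 16 of immune cells, and none of these 4 lists held a gained region.

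The peaks of the gained regions ranked in the middle of their lists. The rule bears on region length, since a region that merges peaks of more lists tends to be longer. The median length of the gained regions was 718 bp (302 to 3192), against 412 bp over all regions, 461 bp for the lost regions and 908 bp for those called in all 6 lists. The score deposited with a peak has no stated scale and was used only for its percentile within its own list, where 100 is the highest. Averaged over the 4 SETD2KO lists, the median percentile of the 459 regions was 44.0 and single regions ranged from 9.82 to 98.9. In 79 regions all 4 peaks stood at or above the 50th percentile, and in 127 the lowest stood under the 10th. Regions just outside the rule were similar in rank: 956 with a peak in all 4 SETD2KO lists and 1 WT list had a median of 51.5, and 1401 with a peak in 3 SETD2KO lists and no WT list had a median of 40.3. The nearest WT peak lay a median of 17786 bp away, within 1000 bp for 70 regions and within 100 bp for 1. The count rests on each library. It was 1145 without WT replicate 1, 734 without WT replicate 2, 705 and 716 without SETD2KO-1 replicates 1 and 2, and 672 and 1142 without SETD2KO-2 replicates 1 and 2.

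Fewer gained than other regions lay in genes. The midpoint was in a protein-coding gene for 309 regions (67.3%, Wilson 95% interval 62.9 to 71.5), against 85.7% of all regions, 86.2% of the lost regions and 91.4% of those called in all 6 lists. It was in no gene for 94 regions (20.5%, 17.0 to 24.4), against 7.55% of all regions, 7.09% of the lost and 4.0% of those in all 6 lists. The remaining 56 lay only in a noncoding gene or pseudogene (12.2%), against 6.75% of all. Regions are not replicates and the intervals hold only the error of counting them, so no test was made. The share in no gene was 11.4% without WT replicate 1 and 12.1% when only the better-scored 50% of the peaks in each library were used. The gene table holds gene bodies without exons. Of the 223 regions in exactly 1 protein-coding gene of known strand, 56 (25.1%, 19.9 to 31.2) lay in the last 10% of the gene and 18 (8.07%, 5.17 to 12.4) in the first 10%. All regions gave 16.5% and 12.9%, and those called in all 6 lists 31.9% and 9.67%. By distance, 147 of the 223 (65.9%) were more than 5000 bp from both ends of the gene, close to the 66.7% of all regions.

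**Figure D1:**
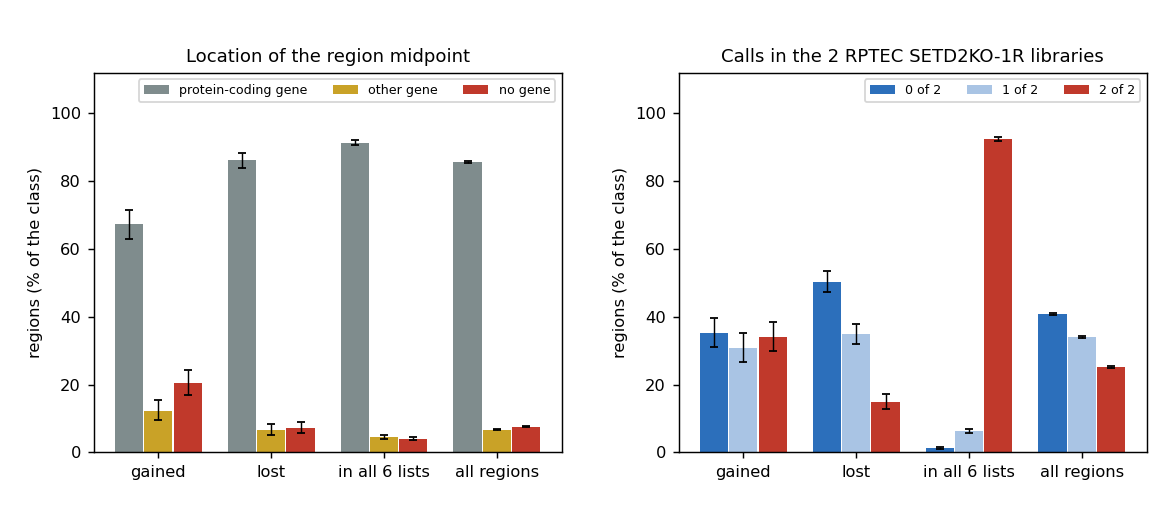
Left, location of the region midpoint, and right, number of RPTEC SETD2KO-1R libraries that called the region, as percent of each class on the y axis, for the 459 gained regions, the 973 lost regions, the 5852 regions called in all 6 WT and SETD2KO lists and all 66134 regions. Error bars are Wilson 95% intervals over regions. The gained class has the tallest bar for no gene (20.5%), and its calls in SETD2KO-1R are spread nearly evenly over 0, 1 and 2 libraries.

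The 309 regions fell in 297 protein-coding genes, 2.55% of the 11632 that held any RPTEC region. Genes that overlap share regions, and 17 of the 297 are genes of the protocadherin gamma cluster, so that 281 remained when the cluster was counted once. Outside it, 6 genes held 3 or more gained regions and 15 held 2. ZNF469, a zinc finger gene in which inherited variants thin the cornea, held 7 over chr16:88427279-88439534, with other SETD2KO peaks between the last 2. Of the 7, 2 also lay in the noncoding gene LOC112268182, from which unstranded peaks cannot be told apart. No WT peak lay in this stretch. The SETD2KO-1 libraries had 7 and 10 peaks there and the SETD2KO-2 libraries 8 and 9, while SETD2KO-1R had 0 and 1 and all 8 786-O libraries had 0. Elsewhere in the gene body the 786-O libraries had 0 to 3 peaks. The contrast of the 4 RPTEC SETD2KO libraries with RPTEC WT is largely set by the rule, here and in the stretches below. In this stretch they also stood apart from SETD2KO-1R and 786-O, whose calls the rule did not use.

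The protocadherin gamma cluster, whose genes join alternative first exons to shared last exons and encode cell adhesion proteins, also held 7 gained regions, over chr5:141356255-141420072. The WT libraries had 1 and 3 peaks in this stretch, SETD2KO-1 had 24 and 18, SETD2KO-2 had 15 and 21, and SETD2KO-1R had 8 and 8. In 786-O the WT libraries had 2 and 2 peaks, SETD2KO-1 had 15 and 7, SETD2KO-2 had 7 and 11, and SETD2KO-1R had 8 and 8. The SETD2KO-1R libraries lay between WT and SETD2KO in RPTEC, and in 786-O they overlapped with SETD2KO. A peak in one of the variable exons is inside the annotated body of every gene that starts before it, so it cannot be given to a single gene. The variable exons are also alike in sequence.

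LOC151760, a long noncoding RNA gene chosen after its values were seen, held 4 gained regions. In it and its surroundings on chr3:110553402-110917115 lay 14, of which 8 were in no gene. WT had no peak over this stretch of 363714 bp, against 28 and 28 in SETD2KO-1 and 24 and 22 in SETD2KO-2. SETD2KO-1R had 24 and 23, in the range of the knockouts and unlike ZNF469. In 786-O the stretch had 0 peaks in WT, 0 in both SETD2KO-1 libraries, 3 and 4 in SETD2KO-2, and 1 and 0 in SETD2KO-1R.

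**Figure D2:**
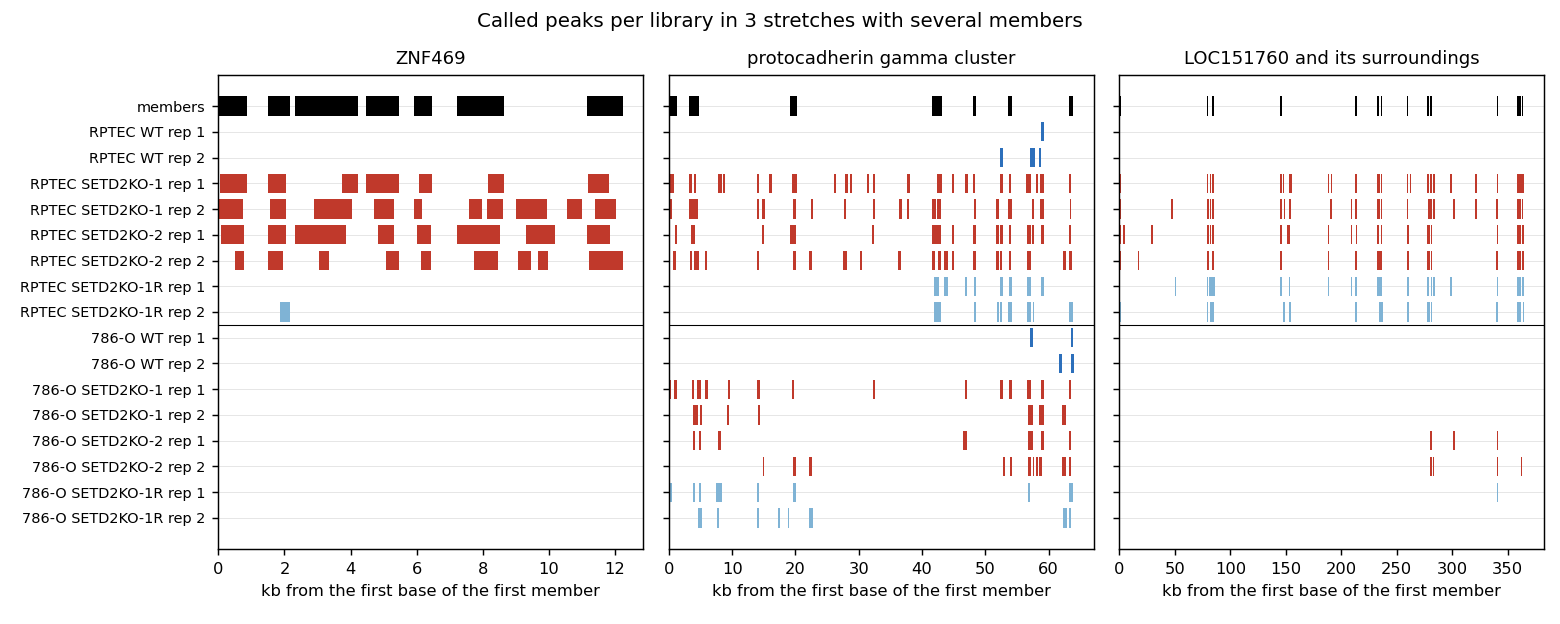
Called peaks of the 16 libraries (rows) in ZNF469, the protocadherin gamma cluster and the stretch around LOC151760. The x axis is the distance in kb from the first base of the first gained region. Black bars (members) are gained regions, dark blue bars WT peaks, red bars SETD2KO peaks and light blue bars SETD2KO-1R peaks, and the narrowest bars are drawn slightly wider than their length to be visible. ZNF469 has 1 RPTEC SETD2KO-1R peak, whereas the LOC151760 stretch has 24 and 23.

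Among the other genes with several gained regions, FAT4, an atypical cadherin, held 4. It had 4 and 3 peaks in the WT libraries, 9, 9, 9 and 8 in the SETD2KO libraries and 11 and 11 in SETD2KO-1R, so its 4 gained regions came on top of WT peaks elsewhere in the gene. The following genes were chosen after their values were seen. PRSS23, a serine protease, held 4 gained regions, with 2 and 3 WT peaks, 12, 10, 11 and 9 in SETD2KO and 5 and 5 in SETD2KO-1R. TENM3, a teneurin that guides neuronal wiring, held 3, with no WT peak, 16, 12, 10 and 7 in SETD2KO and 20 and 22 in SETD2KO-1R. In 786-O, TENM3 had 29 and 39 WT peaks, 29 to 42 in SETD2KO and 35 and 32 in SETD2KO-1R, so the groups overlapped there. MAF, a leucine zipper factor, held 2 neighboring regions, the longer of which spans its start, with no RPTEC WT peak, 5, 3, 2 and 2 in SETD2KO and none in SETD2KO-1R. In 786-O, MAF had 7 and 5 peaks in WT, 7, 7, 5 and 5 in SETD2KO and 2 and 1 in SETD2KO-1R, so WT and SETD2KO overlapped there.

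The 20 protein-coding genes with the highest mean percentile over the SETD2KO lists led with BCLAF1, a nuclear factor tied to splicing. Its region (chr6:136261441-136261742) stood at percentiles 99.6, 98.8, 98.1 and 99.2 in the 4 SETD2KO lists and had no peak in SETD2KO-1R. All 8 786-O libraries called it, at 97.6 to 99. Its nearest RPTEC WT peak was 14391 bp away. KLC1, a kinesin light chain, had 98.7, 98.6, 98.7 and 98.7 in SETD2KO, and SETD2KO-1R called it at 98.9 and 99.5. In 786-O, KLC1 had no peak in WT or SETD2KO-1 but 93.2 and 97.7 in SETD2KO-2 and 97.9 and 99 in SETD2KO-1R, so its 786-O calls did not follow SETD2 status. F2R, the thrombin receptor, had 98, 95.7, 96.2 and 99.4 in SETD2KO and 98.1 and 97.1 in SETD2KO-1R. TNFRSF11B, the decoy receptor osteoprotegerin, had 96.6, 85.7, 92.8 and 98.2 in SETD2KO and no peak in SETD2KO-1R or in any 786-O library.

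The other 16 ranged in mean percentile from 95.4 for LMO7, a LIM domain adhesion protein, to 86.8 for NBPF15, a member of a repeated gene family whose copies can share reads. They included CASC3, a core subunit of the exon junction complex (95.2), PKD2, the polycystin-2 channel (94.3), EIF4G1, a translation initiation scaffold (93.4), TNIP2, a regulator of NF-kB (93.3), CREB3L1, a membrane-bound transcription factor (92.6), SOCS2, a suppressor of cytokine signaling (91.2), and OSBP, an oxysterol-binding protein (90.7). CRACD (89.9), EXT2, which makes heparan sulfate (89.5), FOXF2 (89.5), NIPBL, the cohesin loader (89.0), NUPR1, a stress-induced factor (88.6), and CRKL, a signaling adaptor (88.5), were also in the set. Of the 20, 13 were called in both SETD2KO-1R libraries, 3 in 1 and 4 (BCLAF1, TNFRSF11B, NIPBL and NUPR1) in neither, where the 459 gained regions gave 34.0% in both and 35.3% in neither and all RPTEC regions 25.2% and 40.9%. The 20 were picked for their high rank in SETD2KO. Both 786-O WT libraries called 11 of them, against 29.6% of the 459 and 26.8% of all RPTEC regions. No 786-O library called 2 (TNFRSF11B and FOXF2), against 26.1% and 31.4%. EIF4G1 and NBPF15 had a WT peak within 1000 bp, at 293 and 438 bp. The region at CASC3 (chr17:40161487-40162025) holds the hairpin of MIR6866, and the one at the FOXF2 start overlaps that of MIR6720. These were the 2 regions that touched a miRNA hairpin.

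**Figure D3:**
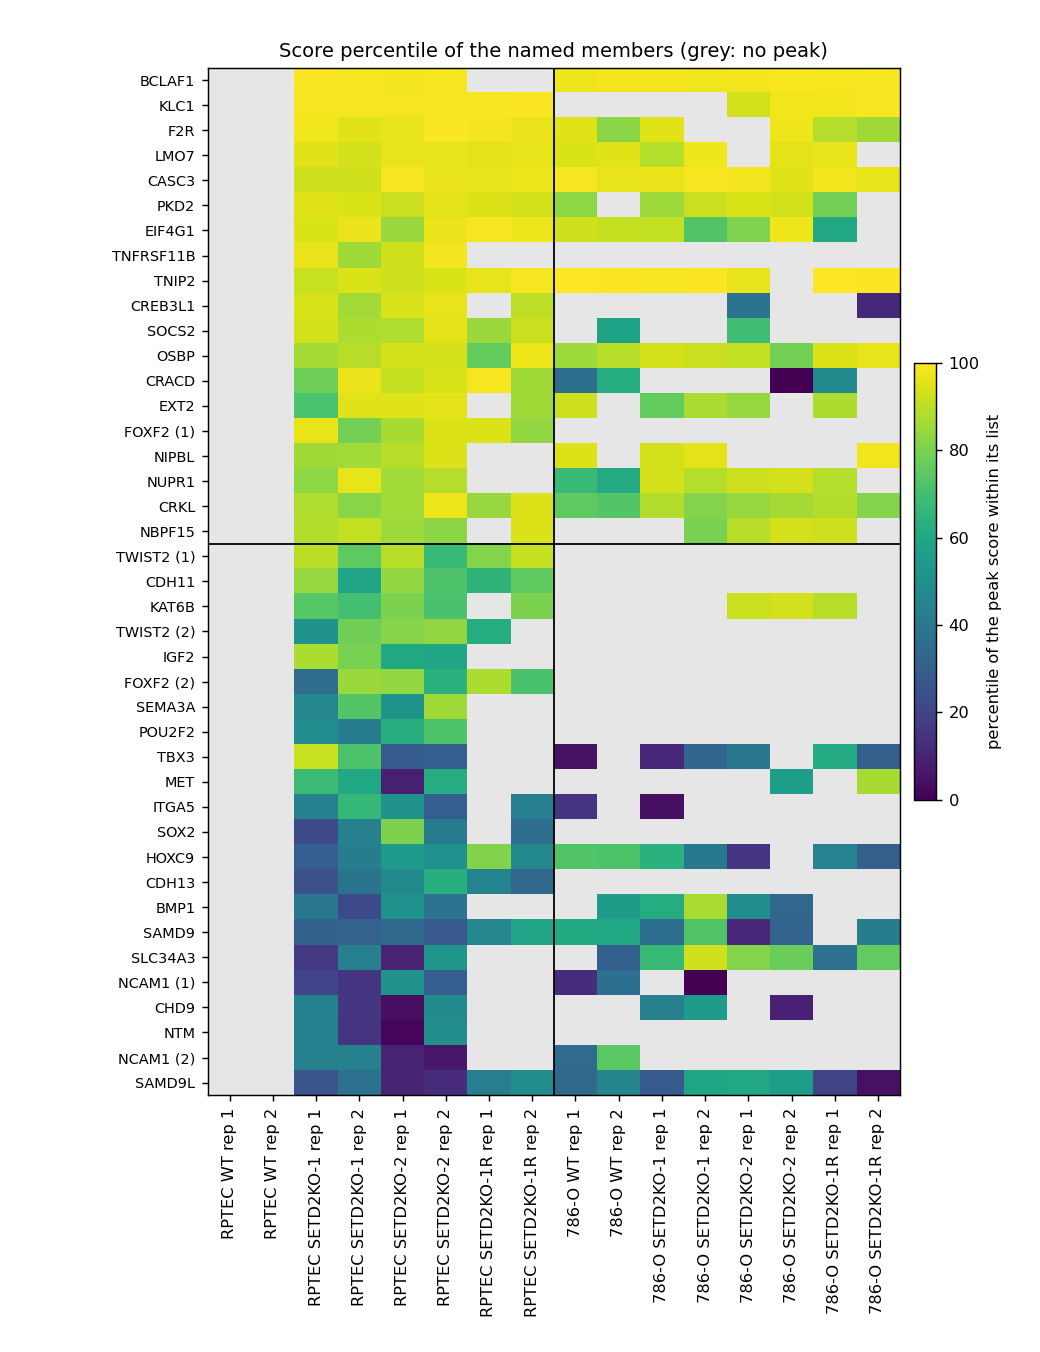
Percentile of the peak score within its list (color, 0 to 100) in the 16 libraries (columns), with grey where no peak was called. The rows above the line are protein-coding genes with the highest mean percentile in SETD2KO and the rows below it are the gained regions of the gene lists, by mean percentile, where a number after a gene tells apart 2 regions of it. The grey RPTEC WT columns and filled SETD2KO columns are set by the rule; BCLAF1 is filled in all 786-O columns and grey in SETD2KO-1R, and TNFRSF11B and both FOXF2 regions are grey throughout 786-O.

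Each of the gene lists of 15 pathways and 5 cell types held 0 to 5 genes with a gained region. Over all genes with an RPTEC region the share with a gained one was 2.55%. Developmental transcription factors held the most, 5 of 66 with an RPTEC region, namely FOXF2 with 2 regions and HOXC9, TBX3, SOX2 and POU2F2 with 1 each. FOXF2 had no WT peak anywhere in the gene, 3, 2, 2 and 3 peaks in SETD2KO, 2 and 3 in SETD2KO-1R and none in 786-O. SOX2 had none in WT, 1, 2, 1 and 2 in SETD2KO, 0 and 1 in SETD2KO-1R and none in 786-O, and it lies within the noncoding SOX2-OT gene, from which unstranded peaks cannot be told apart. POU2F2, an octamer-binding factor best known from B cells, had 1 and 1 WT peaks, 5, 7, 5 and 2 in SETD2KO, and 1 and 0 in SETD2KO-1R, and its gained region stood at percentiles 48.5, 42.0, 63.1 and 72.6. In 786-O, POU2F2 had 0 or 1 peak in every library. HOXC9 was called in both SETD2KO-1R and both 786-O WT libraries. MAL, a proteolipid of apical membranes looked up beside POU2F2, went the other way, with 6 and 5 WT peaks, 2, 1, 0 and 0 in SETD2KO, 5 and 3 in SETD2KO-1R and no gained region.

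Of 52 axon guidance and adhesion genes with an RPTEC region, 4 held gained regions, the secreted guidance cue SEMA3A, the cadherins CDH11 and CDH13, and NCAM1, the neural cell adhesion molecule. NCAM1 had no RPTEC WT peak, 7, 5, 5 and 6 in SETD2KO and 4 and 2 in SETD2KO-1R. In 786-O it had 15 and 17 WT peaks, 0, 1, 1 and 2 in SETD2KO and 0 and 0 in SETD2KO-1R, which is the opposite order of WT and SETD2KO. CDH11, a mesenchymal cadherin, had none in RPTEC WT, 3, 1, 1 and 1 in SETD2KO, 1 and 1 in SETD2KO-1R and none in 786-O. Of 86 genes of epithelial-mesenchymal transition and matrix with an RPTEC region, 4 held gained regions, TWIST2 with 2, the fibronectin receptor subunit ITGA5, TNFRSF11B and NTM, a neuronal adhesion protein. TWIST2 had 3 and 3 WT peaks, 10, 11, 9 and 8 in SETD2KO and 10 and 12 in SETD2KO-1R, and no 786-O library had a peak in it. Both SETD2KO-1R libraries called its region at the start, 1 called its other region and that in ITGA5, and neither called those in TNFRSF11B and NTM.

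The other lists held 0 to 3 genes each. Histone and chromatin regulators held CHD9, a chromatin remodeler, KAT6B, a histone acetyltransferase, and NIPBL, out of 62 with an RPTEC region. The interferon list held SAMD9 and its neighbor SAMD9L, antiviral translation inhibitors, out of 36, and both were called in both SETD2KO-1R and both 786-O WT libraries. Receptor tyrosine kinases and growth factors held MET, the HGF receptor, and IGF2, an insulin-like growth factor, out of 37. IGF2 had no WT peak, 2, 3, 2 and 2 in SETD2KO and none in SETD2KO-1R or 786-O, and its region also lies in the readthrough gene INS-IGF2. NF-kB targets held TNIP2, the TGF-beta, BMP, Wnt and Notch list held the procollagen protease BMP1, splicing factors held BCLAF1, and proximal tubule markers held SLC34A3, a renal sodium-phosphate cotransporter. No gained region lay in the lists of H3K36 methylation and its readers (0 of 31), m6A writers, readers and erasers (0 of 20), hypoxia targets (0 of 32), p53, cell cycle and repair (0 of 59), complement and coagulation (0 of 20) or fatty acid oxidation and oxidative phosphorylation (0 of 40). Over the 27 regions of all these lists, 9 were called in both SETD2KO-1R libraries and 14 in neither, and 12 had no 786-O peak, where the 459 gained regions gave 34.0%, 35.3% and 26.1% and all RPTEC regions 25.2%, 40.9% and 31.4%. A WT peak lay within 1000 bp of 5 of them, those of HOXC9, POU2F2, MET and CHD9 and the second of TWIST2. These counts are small, and the lists were chosen with earlier results known. The lists do not hold every gene of their pathways. Outside them, gained regions lay in the bodies of MUS81, OGG1 and FEN1, which act in DNA repair, and of ACAT1, a mitochondrial thiolase.

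Of the 297 protein-coding genes, 86 (29.0%) had no WT peak anywhere in the gene body, against 17.1% of all genes with an RPTEC region, which also count genes called in a single library. The rule itself favors such genes. Both SETD2KO-1R libraries had a peak in 34 of the 86 (39.5%) and neither did in 37 (43.0%). Over the 153 genes with no WT peak and a peak in all 4 SETD2KO libraries, whether or not at the same place, these shares were 43.1% and 36.6%. No 786-O library had a peak in 37 of the 86 (43.0%), against 34.6% of the 153. Peaks in all 4 786-O SETD2KO libraries but in neither 786-O WT library were found in 6 of the 86, against 9 of the 153. Summed over the SETD2KO libraries, TENM3, SORCS2, ZNF469, NEK10, DGKI, NCAM1 and GNG4 had the most peaks among the 86. The next 3 genes were chosen after their values were seen. SORCS2, a sorting receptor of neurons, had 13, 10, 14 and 5 SETD2KO peaks and none in SETD2KO-1R, and in 786-O it had 0 and 0 in WT, 4, 4, 6 and 8 in SETD2KO and 7 and 4 in SETD2KO-1R. NEK10, a kinase of ciliated cells, had 8, 9, 9 and 4 and then 1 and 1 in SETD2KO-1R. GNG4, a G protein gamma subunit, had 1, 5, 6 and 11 and none in SETD2KO-1R or 786-O.

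The 94 regions in no gene lay at a wide range of distances from protein-coding genes, and those nearest to SLC7A11 and CDK14 lay at 0 bp from the gene. The median distance to the nearest protein-coding gene was 27476.5 bp, against 8564 bp for all RPTEC regions in no gene, and 42 (44.7%, 35.0 to 54.7) were more than 50000 bp away, against 25.3%. Within 5000 bp of such a gene on either side lay 15 (16%, 9.92 to 24.7), against 40.9% of all regions in no gene. The strand of the nearest gene was missing for 21 of the 94, and of the other 73, 8 lay within 5000 bp downstream (11%), against 28.3% of all. They formed 72 runs, with at most 100 kb between neighbors, of which 10 held 2 or more regions and together 32 of the 94. The stretches described next were chosen after their values were seen. A pair of neighboring runs with 6 regions on chr2:17126222-17402814 had 1 and 1 WT peaks between the regions. It had 15, 21, 14 and 13 in SETD2KO and 15 and 11 in SETD2KO-1R. In 786-O this stretch had 0 and 0 peaks in WT, 22, 19, 27 and 17 in SETD2KO and 0 and 0 in SETD2KO-1R. In 786-O, both SETD2KO clones were thus set apart from WT and SETD2KO-1R in this stretch. In RPTEC, 1 SETD2KO-1R library lay in the range of the knockouts and the other, with 11 peaks, lay between WT and SETD2KO. Left out of it were the nearby runs at chr2:16857951-16878394 and chr2:16996739-16998107, with 2 and 1 regions. Counting each region in each library, RPTEC SETD2KO-1R had 0 of 4 and 0 of 2 possible calls there. In 786-O, SETD2KO had 1 of 8 and 3 of 4, and WT 0 of 4 and 0 of 2. On chr1:172782535-172808062, 4 regions had 1 and 0 WT peaks around them, 5, 7, 6 and 5 in SETD2KO and 6 and 2 in SETD2KO-1R. In 786-O this stretch had 0 and 0 in WT, 6, 3, 4 and 5 in SETD2KO and 3 and 2 in SETD2KO-1R. Outside the stretches named in this report, runs with several regions began at chr3:102008667, chr4:67731357, chr7:134976692, chr8:16032120 and chr22:16166532, and they varied. In 786-O they had 9 of 12, 8 of 8, 0 of 8, 3 of 16 and 7 of 8 possible SETD2KO calls. Their 786-O WT calls were 1 of 6, 2 of 4, 0 of 4, 0 of 8 and 0 of 4. In RPTEC SETD2KO-1R they had 2 of 6, 2 of 4, 2 of 4, 0 of 8 and 0 of 4.

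The region in no gene with the highest mean percentile was chr4:138242179-138242563, at 86, 85, 91.7 and 91.7 in the SETD2KO lists. It touches the annotated body of SLC7A11, the cystine transporter, while its midpoint lies outside. Next came a region at 88.5, 80.9, 78.4 and 91.2, called in neither SETD2KO-1R library, in all 4 786-O SETD2KO libraries (87.6 to 93.1) and in no SETD2-expressing 786-O library. Its nearest protein-coding gene is RIPK2, 517902 bp away. The others were chr5:150428949-150429801, nearest to RPS14 (84.1), chr1:172806697-172807154 of the run above (83.9), and the region before the start of IL11 at chr19:55370583-55371252 (80.9). The IL11 region stood at 80.6, 93.1, 75.9 and 73.9, with no peak in RPTEC SETD2KO-1R and the nearest WT peak 166 bp away. In 786-O only the SETD2KO-1R libraries called it, at 88.8 and 26.9.

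The calls of SETD2KO-1R took no part in the rule, although its peaks were among those merged into regions. Both libraries called 156 of the 459 (34.0%, Wilson 95% interval 29.8 to 38.4), against 25.2% of all RPTEC regions. Neither called 162 (35.3%, 31.1 to 39.8), against 40.9% of all, and 141 (30.7%) were called in 1 of the 2. Singly, the libraries called 234 and 219 of the 459 (51.0% and 47.7%), against 40.6% and 43.8% of all regions and 95.6% and 95.5% of those called in all 6 lists. The reverse comparison was lower. The regions lost in both clones, which carry a peak in both WT lists, were called in both SETD2KO-1R libraries in 14.8% (12.7 to 17.2) and in neither in 50.4% (47.2 to 53.5). The classes rest on different numbers of lists, 4 that must call and 2 that must not for the gained regions and the opposite for the lost ones, so their shares are not measured alike, and with 2 libraries of SETD2KO-1R there was no test. By location, both libraries called 36.2% of the 309 regions in a protein-coding gene, 44.6% of the 56 in another gene and 20.2% of the 94 in no gene (13.3 to 29.4), against 26.5%, 19.5% and 14.8% of all RPTEC regions in these places. Neither called 33.0%, 30.4% and 45.7% (36 to 55.8), against 38.7%, 49.4% and 57.4%, so the lower share in no gene was also found over all regions. With the SETD2KO-1R lists left out of the merging, an alternative added after the data were seen, 457 regions were gained, of which 33.3% were called in both and 35.4% in neither, against 27.9% and 47.0% of all 57483 regions. When WT replicate 1 was left out of the lists that choose the regions, both libraries called 56.0% and neither called 18.6%.

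**Figure D4:**
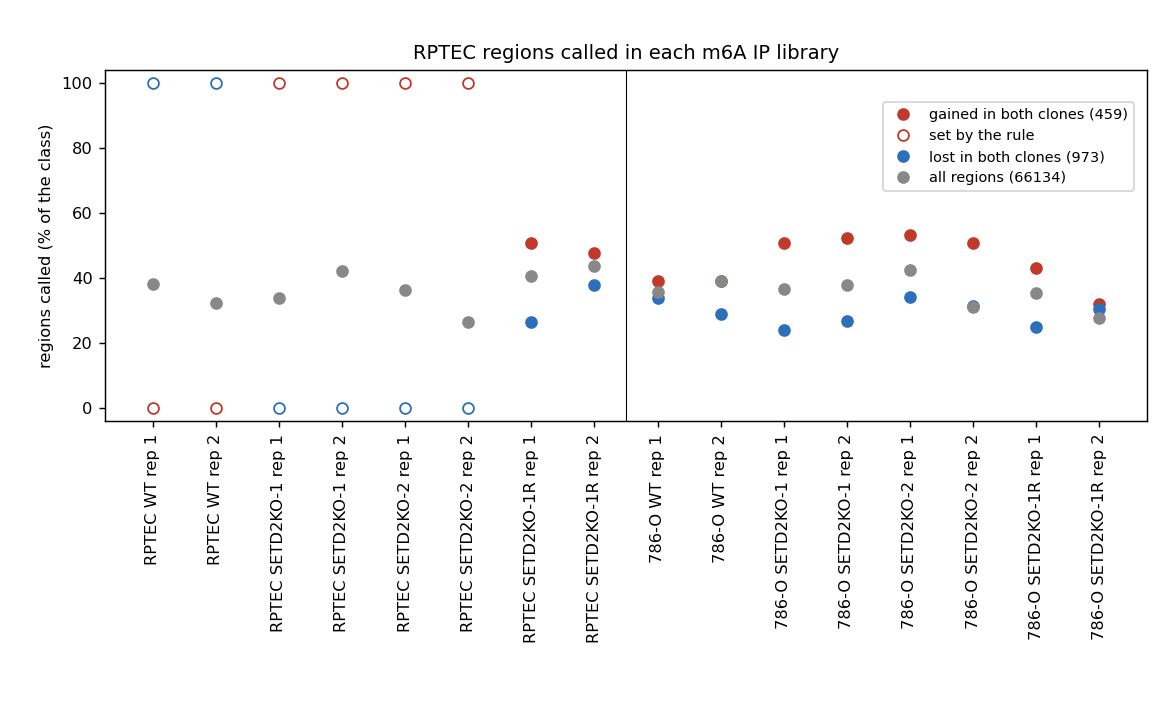
Percent of the 459 gained, 973 lost and all 66134 RPTEC regions (y axis) that overlap a peak of each of the 16 libraries (x axis). Open circles are values set by the rule. In RPTEC SETD2KO-1R 51.0% and 47.7% of gained regions are called, and in 786-O the 4 SETD2KO libraries call 50.8% to 53.2%, above the 32.0% to 43.1% of the 4 SETD2-expressing libraries.

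The 786-O libraries, which also took no part in the rule, asked whether the same regions differed with SETD2 status in a second cell line. The SETD2KO libraries called 51.0% and 52.3% (SETD2KO-1) and 53.2% and 50.8% (SETD2KO-2) of the 459 regions. The WT libraries called 39.0% and 39.0% and the SETD2KO-1R libraries 43.1% and 32.0%. The means were 51.8% ± 1.13 and 38.3% ± 4.61 (SD, n = 4 libraries each), and the groups did not overlap. The lists differ in size, and the planned measure set the logit of this share against that of the regions lost in both clones in the same library. It was 0.97 ± 0.20 in SETD2KO and 0.39 ± 0.33 in SETD2-expressing libraries (SD, n = 4), a difference of 0.58, or an odds ratio of 1.78, which did not pass (two-sided exact permutation p = 0.0857 over 70 arrangements, whose smallest p is 0.0286). One SETD2KO-1R library, replicate 1, reached 0.83 and lay inside the SETD2KO range of 0.78 to 1.18. That library called 24.9% of the lost regions, whereas replicate 2, with a smaller list, called 30.4%. The lost share did not follow list size throughout. The larger list called the smaller share in WT (29.1% against 33.9%) and the larger share in SETD2KO-1 and SETD2KO-2. The share of all RPTEC regions was 27.9% in the smallest 786-O list and 42.6% in the largest. Against all RPTEC regions the difference was 0.44 (exact permutation p = 0.0286). The difference of the plain shares, 13.5 percentage points, had an exact permutation p of 0.0286, or 0.114 after Benjamini-Hochberg adjustment over 4 classes of regions, a comparison added after the data were seen. In the same exact permutation test the lost regions gave -0.46 points (p = 0.914), those in all 6 lists 1.05 (p = 0.743) and all regions 2.54 (p = 0.486). The libraries come from 4 lines, and libraries of a clone are not independent, so these p-values describe the libraries. The planned difference was 0.72 (exact permutation p = 0.0286) without 786-O SETD2KO-1R replicate 1, and 0.51 (p = 0.0286) when RPTEC SETD2KO-1 replicate 2 took no part in choosing the regions. It was 0.38 (exact permutation p = 0.2) when RPTEC WT replicate 1 took no part in choosing them and 0.43 (exact permutation p = 0.314) without RPTEC SETD2KO-2 replicate 2.

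Split by location, a split made after the data were seen, the difference was largest for the 94 regions in no gene. The SETD2KO libraries called 53.2%, 47.9%, 55.3% and 59.6% of them, WT 18.1% and 17.0%, and SETD2KO-1R 35.1% and 26.6%. Relative to the lost regions the difference was 1.35 on the logit scale, an odds ratio of 3.85 (two-sided exact permutation p = 0.0286, the smallest possible, and 0.114 after Benjamini-Hochberg adjustment over 4 comparisons). The lost regions lay mostly in protein-coding genes, so the reference was not matched by location. Against the 69 lost regions in no gene the difference was 1.21, and against all RPTEC regions in no gene 0.97 (exact permutation p = 0.0286 each). Relative to all lost regions it was 1.19 with 1 region per run, and the exact permutation p was 0.0571 when any of the 4 SETD2KO libraries of 786-O was left out, with differences of 1.28, 1.39, 1.41 and 1.31, and also when RPTEC SETD2KO-2 replicate 2 took no part in choosing the regions (1.10). For the 309 regions in a protein-coding gene the SETD2KO libraries called 50.8%, 55.3%, 54.4% and 49.2%, WT 46.0% and 47.6%, and SETD2KO-1R 46.3% and 33.3%, a difference of 0.40 (exact permutation p = 0.143, adjusted 0.143). The 56 in another gene gave 0.45 (exact permutation p = 0.0857, adjusted 0.114). Whether regions in no gene differed more than those in genes was not tested.

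**Figure D5:**
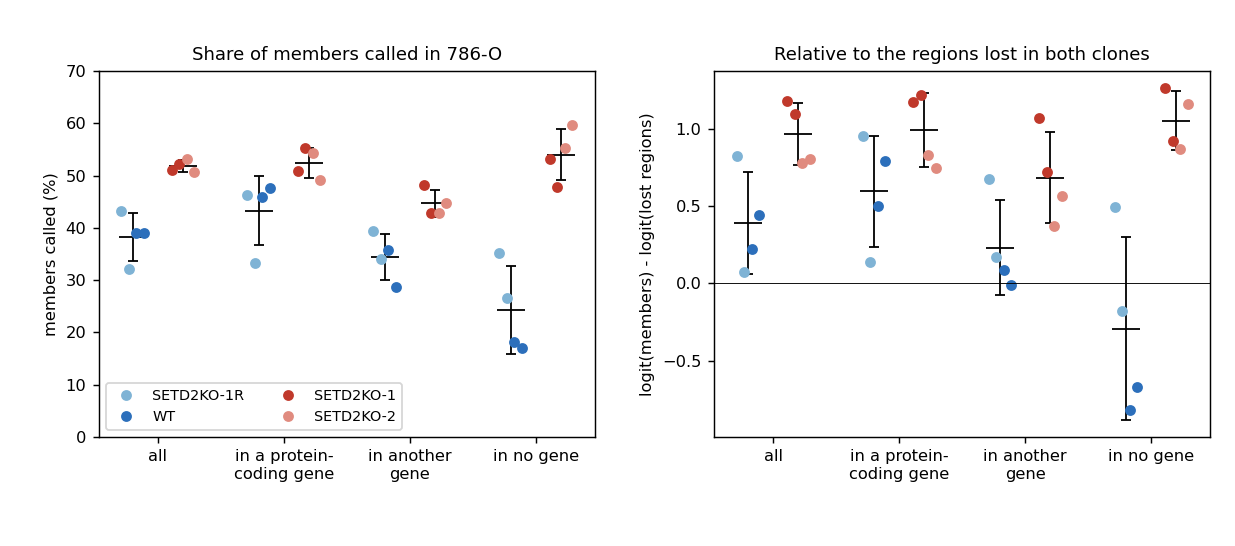
Left, percent of the gained RPTEC regions (members) called in each 786-O library, and right, the same as the logit minus the logit of the lost regions, for all 459 regions and by location (x axis). Points are libraries colored by line, the left cluster of each pair is SETD2-expressing and the right SETD2KO, and horizontal bars with error bars are means ± SD of 4 libraries. For regions in no gene, SETD2KO libraries lie at 47.9% to 59.6% and WT libraries at 17.0% and 18.1%, with the SETD2KO-1R libraries between them.

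The same call pattern, with a peak in all 4 786-O SETD2KO libraries and in neither 786-O WT library, was met by 29 of the 459 regions (6.32%, Wilson 95% interval 4.43 to 8.93), against 0.824% of all RPTEC regions and 5 of the 973 lost ones (0.514%). The reverse 786-O pattern was met by 4 (0.871%), against 1.13% of all. No 786-O library called 120 (26.1%) and all 8 called 50 (10.9%), against 31.4% and 11% of all. Of the 29, 16 were in no gene, which is 17.0% of the 94 (10.8 to 25.9) against 2.22% of all regions in no gene. Neither 786-O SETD2KO-1R library called 16 of the 29, against 219 of the 545 RPTEC regions with this pattern. Neither RPTEC SETD2KO-1R library called 11 of the 29, where the share was 35.3% over all gained regions and 40.9% over all RPTEC regions.

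The 9 regions of this group in protein-coding genes lay in DISP1, which releases Hedgehog ligands, SCHIP1 with the overlapping IQCJ-SCHIP1, CXXC4, an inhibitor of Wnt signaling, SYNPO2, an actin-binding protein, JAKMIP2, DGKI, a diacylglycerol kinase, NXNL2, ABTB3 and IGSF5, an immunoglobulin-like junction protein. CXXC4 had no WT peak in either cell line, 2, 1, 2 and 1 peaks in the RPTEC SETD2KO libraries, 2, 1, 2 and 2 in the 786-O SETD2KO libraries and none in SETD2KO-1R of either line. Its region (chr4:104490907-104491458) stood at percentiles 51.1, 23.7, 15.7 and 67.5 in RPTEC and 22.5, 37.2, 59.6 and 72.6 in 786-O, and it also holds the start of the noncoding CXXC4-AS1. SYNPO2 had no WT peak in either cell line, 3, 1, 4 and 4 in RPTEC SETD2KO and 1, 3, 2 and 3 in 786-O SETD2KO, but 3 and 1 in RPTEC SETD2KO-1R and 0 and 0 in 786-O SETD2KO-1R. JAKMIP2, a neuronal coiled-coil protein, had no WT peak in either line, 4, 2, 2 and 3 and then 3, 1, 1 and 1 in SETD2KO, no peak in RPTEC SETD2KO-1R and 1 and 0 in 786-O SETD2KO-1R. DGKI had no WT peak in either line and 4, 5, 11 and 7 in RPTEC SETD2KO, with 3 and 6 in SETD2KO-1R. In 786-O, DGKI had 2, 1, 4 and 4 in SETD2KO and 2 and 0 in SETD2KO-1R, so that a SETD2-expressing library also had peaks in it. IGSF5 also had no WT peak in either line, whereas DISP1, SCHIP1, NXNL2 and ABTB3 had WT peaks elsewhere in the gene in both. DISP1 had 6 and 4 WT peaks in each line. ABTB3 had 2 and 1 WT peaks in RPTEC and 8 and 8 in 786-O. The noncoding genes of this group were HCP5, LINC03027, LOC101927588 and PSG8-AS1. The HCP5 region was the highest in rank, at 96.8, 91.2, 90.9 and 98.2 in RPTEC SETD2KO, 84.4 and 89.4 in RPTEC SETD2KO-1R and 94.5, 95, 95.7 and 97.1 in 786-O SETD2KO, and no 786-O SETD2-expressing library called it. The nearest RPTEC WT peak to the HCP5 region was 240 bp away.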

How the data were processed

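MeRIP-seq IP libraries of RPTEC and 786-O were analysed as 16 peak lists. Per the labels and the study's methods, the authors aligned reads with STAR (build hg38), used HTSeq, an E. coli spike-in and MACS2, and called peaks per library as IP over Input. The deposited score of a peak is a whole number of unstated scale, used only for ranks within its list, and the summit column and the columns that are 0 throughout were not needed. Lists carry no strand or counts.

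Peaks on chromosomes 1 to 22 of the 8 RPTEC lists were merged where they overlapped by 1 bp. Genes are those of RefSeq GRCh38.p14 that hold the region midpoint. Strand was known for 15101 of 19126 autosomal protein-coding genes. Percentages have Wilson 95% intervals for counting error. In 786-O, 4 SETD2KO and 4 SETD2-expressing libraries were compared by a two-sided exact permutation test. The members, gene lists and tests were chosen with earlier results of these data known. Named genes are the 20 with the highest mean percentile over the SETD2KO lists, those with 3 or more regions (at most 12), those also gained in 786-O, those in the gene lists, the 5 highest regions in no gene, and POU2F2 and MAL. Some genes that meet this rule are not reported here. Genes named outside it are marked as picked once their values were known. In simulated data 200 of 200 planted regions were recovered. They were planted in all 4 SETD2KO lists and in no WT list, beyond the real peaks of chromosome 22. Their recovery checks the code and not the choice among neighboring real peaks. Regions and members were also checked against bedtools 2.31.1. Tests ran in SciPy 1.17.1 with pandas 2.3.3 and NumPy 2.4.6 under Python 3.11.15, and plots in Matplotlib 3.10.9.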

Additional observations from a re-analysis of the deposited data

Results flagged for a closer look

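For the 309 gained regions in a protein-coding gene, 786-O SETD2KO-1R replicate 2 called 33.3%, whereas the other SETD2-expressing 786-O libraries called 46.0% to 47.6%, a gap above Dixon's 95% limit for 4 libraries. It was the only one of 16 sets of 4 libraries with a value apart, and chance gives about 1 in 20. This library also had the smallest 786-O list, with 25710 peaks. The part of list size in this value was not tested.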

How the results depend on the processing

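The number of gained regions was 165 with the upper 50% of each list, 274 with the same number of peaks per list, 291 when a peak had to cover 50% of the region, 465 with peaks within 100 bp merged and 344 with peaks of at least 300 bp. With SETD2KO-1 alone against WT it was 2437, and with SETD2KO-2 alone 1398. Leaving out each RPTEC library in turn gave 672 to 1145 regions, of which 26.7% to 56.0% were called in both SETD2KO-1R libraries, 18.6% to 43.2% in neither, and 11.4% to 21.8% were in no gene. The share in no gene was also 12.1% with the upper 50% of each list. The 786-O difference was positive under every alternative run. It passed with the upper 50% of each list (0.60), against all RPTEC regions (0.44) and, in an alternative added after seeing the data, with no reference (0.55; exact permutation p = 0.0286 each). It ranged from 0.38 to 0.51 without each RPTEC library (p 0.0286 to 0.314) and from 0.47 to 0.72 without each 786-O library (p 0.0286 to 0.114), and passed without RPTEC SETD2KO-1 replicate 2 (0.51) and without 786-O SETD2KO-1R replicate 1 (0.72). Against WT alone it was 0.64 (exact permutation p = 0.0667, the smallest possible). With a replicate block it was 0.58 (exact permutation p = 0.111, smallest possible 0.0556), and the replicate numbers did not pair libraries, since the deviations of same-numbered libraries correlated at -0.065 to 0.047. For regions in no gene, all alternatives were added after seeing the data. The difference was 1.04 to 1.3 without each RPTEC library and 1.17 to 1.61 without each 786-O library (exact permutation p up to 0.0571). It was 2.78 with the upper 50% of each list, a value that rests on only 12.1% of 165 regions. Against the lost regions in no gene it was 1.21. Against WT alone it was 1.80 (exact permutation p = 0.0667) and with a replicate block 1.35 (exact permutation p = 0.0556). Both of these p-values are the smallest possible. The cause of these changes was not tested.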

Other observations

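The X chromosome was left out by the rule. By the same rule, 42 of its 2160 RPTEC regions were gained in both clones (1.94%) and 8 were lost in both (0.370%), whereas on the autosomes 459 of 66134 were gained (0.694%) and 973 were lost (1.47%). More regions were thus gained than lost on the X chromosome and fewer on the autosomes.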
